A study of Mus musculus with 14 samples.

Results

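Sorted stroma of the mouse mammary gland was compared with the sorted MaSC/basal fraction (MaSC, mammary stem cell) for the miRNAs on plate A, the first of 2 real-time PCR array plates. The 4 stromal samples and MaSC/basal samples 1, 2 and 3 were used. Assays were chosen by their plate and by detection, and not by the size of a difference. Both can still depend on the population. Plate B was left out since some of its control assays were undetected in MaSC/basal cells and strong in stroma, and 14 plate A assays passed the filter through stroma alone. Of 584 miRNA assays in the series 375 lie on plate A, and for 285 of these 3 or more of the 7 samples had a normalized value of 2 or higher. The other 90 were not tested. No product was seen for 56 of them in any of the 7 samples, 27 were detected in 1 or 2 samples and 7 in 3 or more. Rat-named assays make up 40 of the 375 and are written here with the prefix rno.

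All cells came fresh from the glands of adult, untreated FVB/N mice and were separated by flow cytometry. The series holds 14 samples: 4 labelled MaSC/basal, 3 luminal progenitor, 3 mature luminal and 4 stroma. MaSC/basal samples 1, 2 and 3 came from mouse pools 1, 2 and 3, which also gave the luminal samples of the same numbers. All 4 stromal samples came from pool 5, so the mouse pool and the population cannot be told apart, and the stromal spread is that within a single pool. Over the 234 plate A assays detected in all 13 samples of the fit, pairs of stromal samples differed by a root mean square of 0.49 to 0.64 log2 units, and pairs of MaSC/basal samples 1 to 3 by 1.04 to 1.39. The library labelled MaSC/basal 4, from pool 4, went against its label. It differed from the other MaSC/basal samples by 2.66 to 2.94 and from the 6 luminal samples by 1.34 to 1.93, and it enters no main value here.

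A miRNA is cut from a hairpin precursor and pairs with messenger RNAs mainly through its seed, bases 2 to 8 of the mature strand, which lowers translation or stability of the target. The miR-200 family and miR-205 are known from epithelia, where miR-200 represses the transcription factors Zeb1 and Zeb2. miR-199a and miR-214 come from a transcript on the opposite strand of Dnm3 that is known from mesenchymal cells. The MaSC/basal fraction is known to hold contractile myoepithelial cells beside stem cells, and the stroma to hold fibroblasts and other non-epithelial cells.

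The first set of mature sequences shown is that of the epithelial miRNAs that were lower in stroma, from RefSeq on build GRCm38.p6, with the seed in capitals. The arm is that of the strand the older assay name stands for.
miR-200b: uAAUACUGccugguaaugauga
miR-200c: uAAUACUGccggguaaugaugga
miR-429: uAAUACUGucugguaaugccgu
miR-200a: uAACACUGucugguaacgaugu
miR-141: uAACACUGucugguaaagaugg
miR-183: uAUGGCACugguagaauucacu
miR-96: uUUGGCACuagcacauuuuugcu
miR-182: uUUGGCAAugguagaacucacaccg
miR-205: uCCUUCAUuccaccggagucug
miR-200b, miR-200c and miR-429 share a seed, as do miR-200a and miR-141, and the 2 seeds differ at a single base. The hairpins of miR-429, miR-200a and miR-200b lie together at chr4:156053905-156055750, those of miR-141 and miR-200c at chr6:124717914-124718390 and those of miR-182, miR-96 and miR-183 at chr6:30165918-30169737, all on the minus strand.

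The second set is a selection of miRNAs that were higher in stroma. It holds the products of the Dnm3 opposite-strand transcript, miRNAs of the imprinted Dlk1-Dio3 region and miR-615-3p, which lies in a Hox gene cluster.
miR-199a-3p: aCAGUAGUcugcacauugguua
miR-199a-5p: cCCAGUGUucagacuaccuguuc
miR-214: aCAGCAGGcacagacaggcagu
miR-127: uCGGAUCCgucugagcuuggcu
miR-379: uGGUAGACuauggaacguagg
miR-382: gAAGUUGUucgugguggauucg
miR-409-5p: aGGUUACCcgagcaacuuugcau
miR-154: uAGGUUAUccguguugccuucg
miR-615-3p: uCCGAGCCugggucucccucuu
Each of these 9 has a seed of its own. miR-214 lies at chr1:162223438-162223459 on the plus strand, and the miR-199a arms are encoded there and on chromosome 9. The 5 miRNAs from miR-127 to miR-154 lie on the plus strand of chromosome 12, and miR-615-3p lies at chr15:103014969-103014990.

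The third set holds related miRNAs that gave unlike values in this comparison.
miR-204: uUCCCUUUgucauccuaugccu
miR-211: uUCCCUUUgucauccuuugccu
miR-103: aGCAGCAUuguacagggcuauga
miR-107: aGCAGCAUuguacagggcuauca
let-7c: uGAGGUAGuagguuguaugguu
miR-98: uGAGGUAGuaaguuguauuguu
miR-16: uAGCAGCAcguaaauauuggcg
miR-195: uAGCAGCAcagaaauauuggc
miR-322: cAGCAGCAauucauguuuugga
Counted from the 5′ end, miR-204 and miR-211 differ at 1 base (A17U), miR-103 and miR-107 at 1 base (G22C), and let-7c and miR-98 at 2 bases (G11A and G19U). Within each pair the seed is the same. miR-16, miR-195 and miR-322 share another seed.

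Values are the deposited normalized log2 values, in which 1 unit is 1 PCR cycle and stands for a doubling where amplification is complete. Levels are compared between samples for 1 assay at a time, since assays differ in efficiency, and sums and orders over several assays only describe the values. Each MaSC/basal sample had 264 to 279 plate A assays with a cycle threshold (Ct) under 40, and each stromal sample 287 to 292. The median SD over the 234 assays detected throughout was 0.23 between stromal samples and 0.40 between MaSC/basal samples 1 to 3, against 0.71 when MaSC/basal 4 was added. Differences are stroma minus MaSC/basal with a standard error from limma, fitted over 13 samples, with adjusted p-values over the 443 assays of both plates that passed the filter. In bulk samples, fewer cells of a type and less RNA per cell cannot be told apart.

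Stroma and MaSC/basal cells differed in most of plate A. At an adjusted p under 0.05, 209 of 285 assays were called (73.3%), 104 higher (36.5%) and 105 lower (36.8%) in stroma. These shares are the background for the list counts below. Over both plates 78.8% of assays were called. That share includes plate B, where the control assays U87, snoRNA135 and snoRNA429 were undetected in MaSC/basal 1 to 3 and strong in stroma. The 7 samples fell into non-overlapping groups for 73.3% of plate A assays as well, with stroma above in 101 and below in 108. The median difference over all 285 assays was -0.05. Of the called assays 54 were higher and 37 lower by more than 3 log2 units, and 26 differed by 1 unit or less. The median called difference was 3.05 among assays higher in stroma and -2.11 among those lower. For 12 assays every stromal sample was detected and no MaSC/basal sample was, and the opposite was found for none of the 285. No MaSC/basal sample reached 2 in 14 of the 285 assays, which passed the filter through stroma alone, and all 14 count among the 104 higher. The plot of stromal against MaSC/basal means shows these assays at the left edge.

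**Figure D1:**
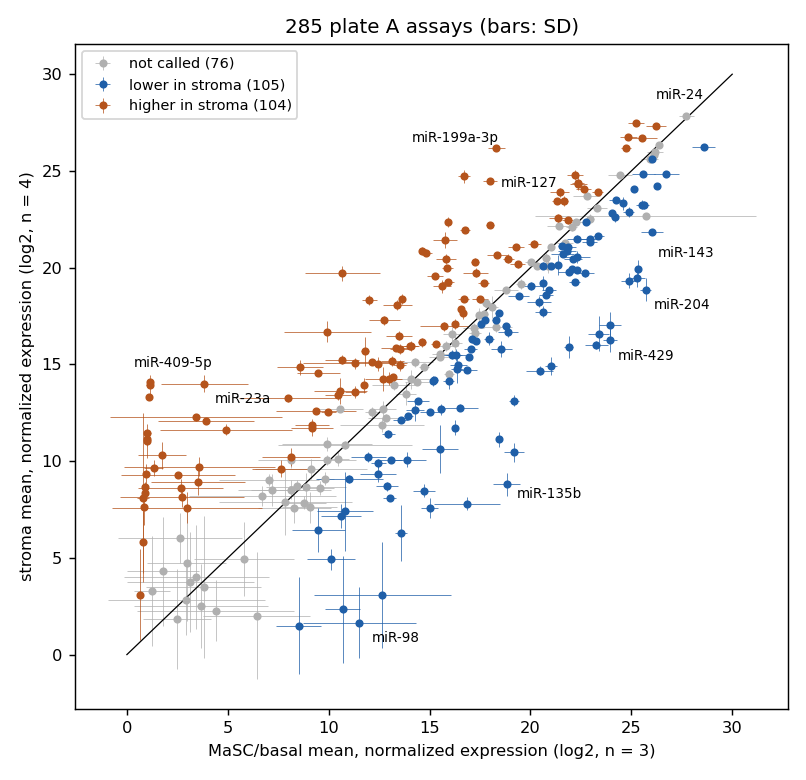
Mean normalized log2 value of each of 285 plate A assays in stroma (vertical axis, 4 samples) against MaSC/basal cells (horizontal axis, 3 samples), with bars for the SD and a line of equality. The 104 assays called higher lie above the line and the 105 called lower lie below it, and the column of points at the left edge holds assays without signal in MaSC/basal cells.

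The split depends on scaling. Against the deposited values, the median plate A difference shifted by 1.37 without normalization, by 0.82 with U6 alone as the reference, by 0.34 with cyclic loess on plate A alone and by -0.10 with median centring. The calls were then 141 higher and 41 lower, 125 and 61, 116 and 91, and 107 and 105. Under all 4 of these scalings 94 of the 104 higher calls and 41 of the 105 lower calls held. With the 4 samples of the single stromal pool averaged to 1, whose spread is then taken to be that of the other populations, 157 assays were called. Of the assays named for the lists, let-7c (adjusted p = 0.18), miR-9 (0.062), miR-10a (0.087), miR-19b (0.25), miR-30d (0.087), miR-34c (0.11), miR-124 (0.086), miR-130a (0.11), miR-148b (0.12) and miR-203 (0.15) then lost their calls. On the deposited scale U6 differed by 0.34, U87 by -0.31, snoRNA135 by 1.73, snoRNA202 by 2.48 and the Y1 RNA by 4.39, and the plant miRNA used as a negative control was not detected in any of the 7 samples.

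The mesenchymal miRNAs were among the most strongly raised in stroma. All 3 assays for miR-199a and miR-214 were higher, with a median difference of 7.88 against -0.05 over all 285 assays, and the median was positive under every scaling. miR-199a-3p measured 26.36, 26.28, 25.99 and 26.09 in stroma 1 to 4 and 18.00, 18.12 and 18.77 in MaSC/basal 1 to 3. The lowest stromal sample thus lay more than 7 units above the highest MaSC/basal one. The difference was 7.88 ± 0.27 (SE, adjusted p = 1.6e-10), a 235-fold excess. miR-214 measured 24.92, 24.95, 24.25 and 24.75 in stroma against 16.99, 16.44 and 16.65, a difference of 8.02 ± 0.26 (adjusted p = 7.7e-11). MaSC/basal cells did not stand apart from luminal cells in either miRNA. Luminal progenitors averaged 18.16 ± 0.51 (SD, n = 3) for miR-199a-3p and mature luminal cells 17.53 ± 0.33, with an adjusted p of 0.20 between MaSC/basal and luminal cells in limma. The opposite arm, miR-199a-5p, measured 14.40 to 15.27 in stroma and 7.53 to 9.80 in MaSC/basal cells and differed by 6.25 ± 0.85.

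The miRNAs of the Dlk1-Dio3 region made up 43 of the 104 assays higher in stroma (41.3%) and 47 of the 285 tested. Among the 43 are 9 that passed the filter through stroma alone, which set their direction. This imprinted region is known to express its miRNAs from the maternal chromosome, as part of long non-coding transcripts. On plate A 51 assays target it and 47 passed the filter, of which 43 were higher in stroma, 0 were lower and 4 were not called. The median difference was 4.75, against -0.44 over the plate A assays outside the region, and was positive under every scaling. Every stromal sample was detected in 45 of the 47 assays and every MaSC/basal sample in 30. Over the 30 assays detected in all 7 samples 27 were higher and the median difference was 3.92.

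The best measured members, such as miR-127, miR-379 and miR-411, were far above the detection limit in both populations. miR-127, which lies antisense to the imprinted gene Rtl1, measured 24.49, 24.70, 24.42 and 24.31 in stroma and 17.99, 18.35 and 17.68 in MaSC/basal cells. It differed by 6.48 ± 0.21, or 89-fold (adjusted p = 8.3e-11). miR-379, at the start of the second group of hairpins, measured 22.18, 22.73, 22.35 and 22.14 against 15.88, 15.99 and 15.87, a difference of 6.44 ± 0.21. In both the stromal samples stood clear of the MaSC/basal samples, whose own spread was under 1 unit. miR-411 was raised by 5.21 ± 0.18 and miR-382 by 9.03 ± 0.78. miR-382 was less even among MaSC/basal samples, at 9.86, 9.38 and 12.79 against 19.16 to 19.93 in stroma, and so were miR-323-3p (4.19, 1.43 and 6.14 against 11.82 to 12.19) and miR-431 (8.44, 8.99 and 12.39 against 15.87 to 17.06). MaSC/basal 3 was the highest of its group for all 3, and still below every stromal sample. For miR-323-3p MaSC/basal 2, at 1.43, lay little above the level of undetected wells, so its difference rests partly on that level.

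Several members of the region were detected in every stromal sample and in no MaSC/basal sample, and passed the filter through stroma alone, so that their fits rest on the value of undetected wells. miR-409-5p measured 13.86, 14.09, 14.22 and 14.12 in stroma and was undetected in all 3 MaSC/basal samples and all 6 luminal samples, where the normalized value of an undetected well lay near 1. Taken at that value it was at least 7810-fold higher in stroma than in MaSC/basal cells. miR-154 measured 13.20 to 13.37 in stroma and was likewise at least 4670-fold higher. miR-369-3p was at least 1370-fold higher, and rno-miR-758, miR-668, miR-679, miR-380-3p and miR-377 gave lower bounds of 1100-fold, 1060-fold, 216-fold, 177-fold and 107-fold. miR-369-3p and rno-miR-758 were each detected in 1 of the 6 luminal samples as well. The 4 assays that were not called were miR-666-5p (0.40), miR-667 (0.74), miR-493 (1.34) and rno-miR-673 (1.79), named after their values were seen. The 2 arms of a hairpin did not always show the same contrast, as miR-409-3p was raised by 4.61 and was detected in all 13 samples.

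The hairpins of the region fall into 2 groups on chromosome 12, one at chr12:109563692-109595388 and one at chr12:109709060-109743795. In the first, from miR-770 to miR-136, 11 of 12 placed assays were higher with a median difference of 4.76. In the second, from miR-379 to miR-410, 26 of 27 were higher with a median of 5.21. This group includes miR-409-5p, miR-154, miR-369-3p, miR-668, miR-679, miR-380-3p and miR-377. These passed the filter through stroma alone, which set their direction, and they raise the median. MaSC/basal cells held an intermediate place, being above luminal cells in 27 of the 47 assays and below them in 0. For miR-127 luminal progenitors averaged 16.50 and mature luminal cells 16.13, against 18.01 in MaSC/basal cells. The background for this second comparison is 52.6% of plate A assays called between MaSC/basal and luminal cells, 89 above and 61 below. Both comparisons share the 3 MaSC/basal samples. The plot of the region orders the assays by their stromal level.

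**Figure D2:**
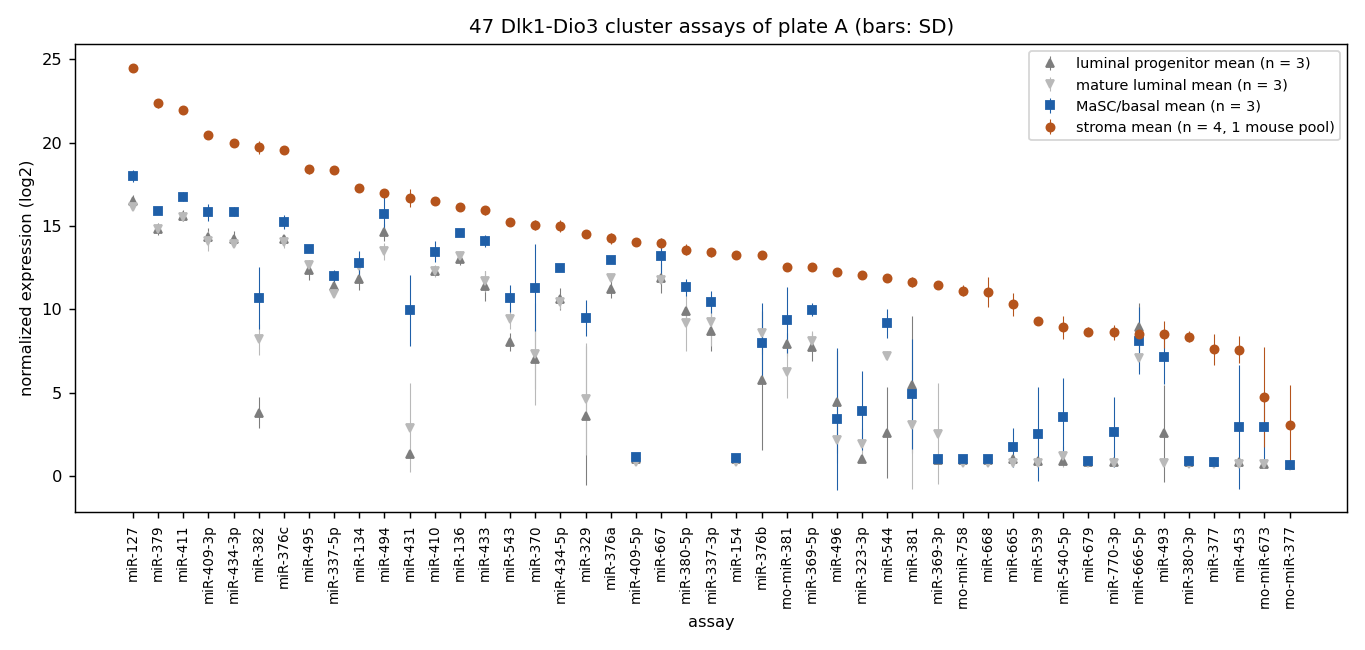
Mean normalized log2 value (vertical axis) of 47 assays of the Dlk1-Dio3 region, ordered along the horizontal axis by their level in stroma, in stroma (4 samples of 1 mouse pool), MaSC/basal cells, luminal progenitors and mature luminal cells (3 samples each), with bars for the SD. Stromal means lie above the MaSC/basal means throughout, from 0.40 for miR-666-5p to 12.93 for miR-409-5p, and squares for MaSC/basal cells lie above the luminal triangles in most of the assays detected there.

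The miRNAs of the Hox gene clusters were also higher in stroma, in 6 of 6 assays. Both miR-615 assays passed the filter through stroma alone, and the other 4 were higher with a median difference of 3.46. miR-615-3p measured 14.38, 14.22, 13.21 and 13.97 in stroma and was undetected in every MaSC/basal and luminal sample, which makes it at least 7210-fold higher. The other arm, miR-615-5p, showed the same split, with 8.97 to 10.11 in stroma. miR-196b was raised by 4.64 ± 0.33 and rno-miR-196c by 5.96 ± 0.19. miR-10b and miR-10a, from the HoxD and HoxB clusters, were raised less, by 2.29 ± 0.23 and 1.02 ± 0.27, and the call for miR-10a was lost with median centring (0.51, adjusted p = 0.054). miR-455, within the collagen gene Col27a1, measured 20.71 to 21.17 in stroma and 14.51 to 14.74 in MaSC/basal cells, a 75.2-fold difference. miR-140, within Wwp2 and known from cartilage, differed in the other direction, by -1.71 ± 0.16, a call lost without normalization (-0.85, adjusted p = 0.07).

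The plot of leading miRNAs shows the largest differences among assays detected in all 7 samples. In the lower direction these are miR-135b, miR-193, miR-133b, miR-429, miR-96, miR-183, miR-135a and miR-133a.

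**Figure D3:**
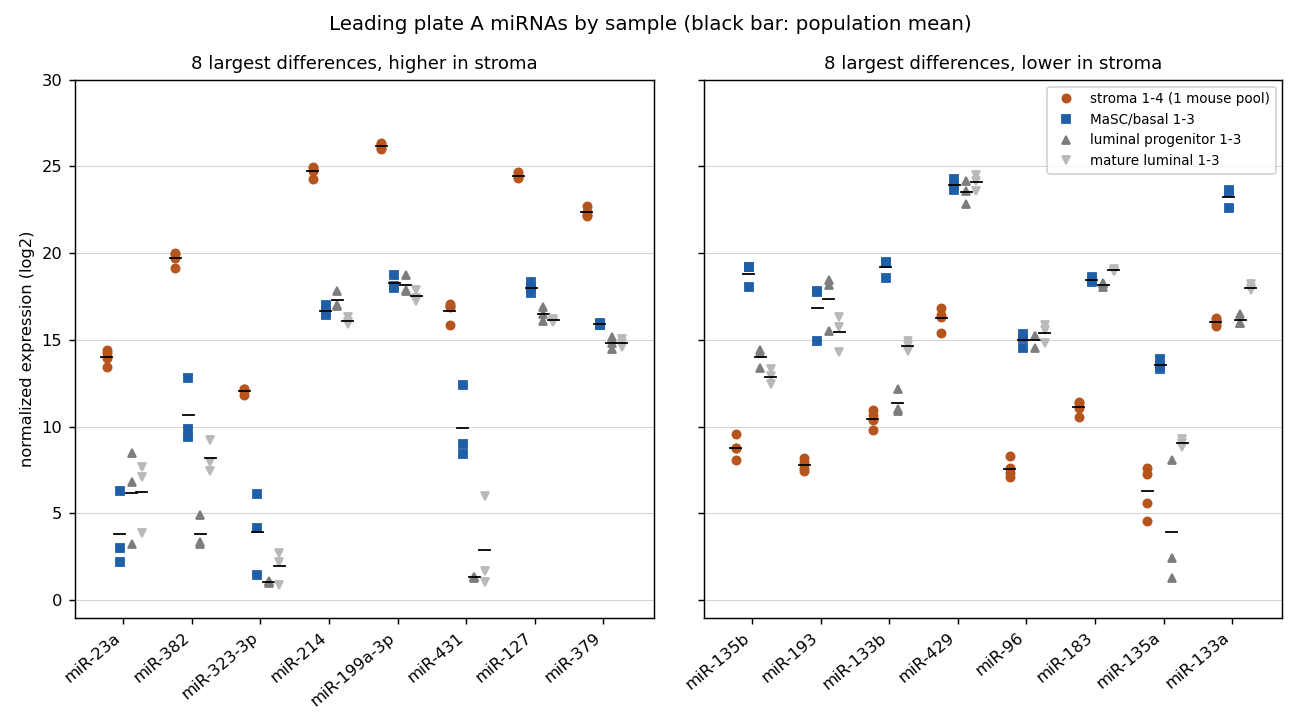
Normalized log2 value (vertical axis) of each sample for the 8 miRNAs with the largest differences in each direction among those detected in all 7 samples, with a black bar for each population mean. Stromal samples (circles) and MaSC/basal samples (squares) do not overlap for any of the 16, as the choice required, while the luminal samples (grey triangles) lie with MaSC/basal cells for miR-429, miR-96 and miR-183 and near stroma for miR-133a in luminal progenitors.

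Epithelial miRNAs were lower in stroma without exception in 2 groups, the miR-183 cluster and the miR-200 family. All 5 members of the miR-200 family fell, with a median of -5.80, and all 3 of the miR-183 cluster, with a median of -7.34, and both medians stayed negative under every scaling. miR-200c measured 20.14, 19.28, 20.19 and 20.13 in stroma and 25.34, 25.26 and 25.35 in MaSC/basal cells, a 41.7-fold difference (-5.38 ± 0.25, adjusted p = 2.3e-09). miR-429 showed the widest gap of its family, at 16.31, 15.41, 16.83 and 16.44 against 23.93, 24.30 and 23.63, a difference of -7.70 ± 0.39. miR-200a, miR-200b and miR-141 differed by -5.57, -5.80 and -6.11. The differences ran from -7.70 to -5.38 among the 3 miRNAs with the miR-200b seed and were -5.57 and -6.11 for those with the miR-200a seed.

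All 5 were detected in every stromal sample. Over the miR-200 family, miR-205 and the miR-183 cluster, 9 assays in all, stroma 2 was the lowest stromal sample in 8, and it lay on average 0.63 below the stromal mean of each assay. For miR-199a, miR-214 and the muscle miRNAs stroma 2 was the lowest in 0 of 7 assays. Stroma 3 was the lowest in 2 of 3 assays for miR-199a and miR-214 and in 4 of 4 muscle assays. In the 9 epithelial assays it lay on average 0.44 above the stromal mean.

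MaSC/basal and luminal cells differed by less than either did from stroma in the miR-200 family and the miR-183 cluster. miR-200c and miR-141 were lower in MaSC/basal than in luminal cells (-1.27, adjusted p = 8.5e-04, and -1.32, adjusted p = 0.0082). The other 3 of the miR-200 family were not called, with differences from -0.67 to 0.15. In the miR-183 cluster, known from sensory epithelia, miR-183 measured 11.45, 10.57, 11.08 and 11.37 in stroma and 18.38, 18.36 and 18.63 in MaSC/basal cells. This is a 162-fold difference (-7.34 ± 0.20, adjusted p = 1.7e-11), while MaSC/basal and luminal cells differed by -0.14 (adjusted p = 0.61). miR-96 differed by -7.41 ± 0.35 and miR-182 by -5.98 ± 0.28. miR-31, which no list held and which was named after its values were seen, had the same shape, with a mean of 17.02 ± 0.67 (SD, n = 4) in stroma, 23.93 ± 0.54 (n = 3) in MaSC/basal cells and 23.36 in luminal progenitors. miR-193 differed by -9.06 ± 0.85, with stroma at 7.43 to 8.17 and MaSC/basal cells at 17.77, 17.80 and 14.97.

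miRNAs known from stratified epithelia were split. miR-205, which is known from basal epithelial cells, measured 16.49, 15.36, 17.43 and 17.05 in stroma and 22.88, 23.91 and 23.35 in MaSC/basal cells, a 112-fold difference (-6.80 ± 0.51). Luminal progenitors (19.16) and mature luminal cells (18.29) lay between. miR-184 differed by 2.46 ± 0.40 and miR-203, known to limit proliferation in skin, by 0.80 ± 0.26, both higher in stroma than in MaSC/basal cells. Both were higher still in luminal cells, with miR-184 at 21.34 in progenitors and 23.84 in mature cells against 19.74 in stroma. The call for miR-203 was lost with median centring (0.38, adjusted p = 0.33) and without MaSC/basal 1 or 2 (adjusted p = 0.066 and 0.052). With the library labelled MaSC/basal 4 included the calls for both were lost, at 0.96 for miR-184 and 0.05 for miR-203 (adjusted p = 0.47 and 0.95). Of these 3 assays 2 were thus higher in stroma, whereas all 8 assays of the miR-200 family and the miR-183 cluster were lower.

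A further group was highest in MaSC/basal cells among all 4 populations. The 4 assays for miR-1, miR-133a and miR-133b, known from striated muscle and measurable in other contractile cells, were all lower in stroma, with a median of -6.65, and all 4 were higher in MaSC/basal than in luminal cells. miR-133a measured 15.91, 16.24, 15.78 and 16.15 in stroma and 23.53, 23.63 and 22.59 in MaSC/basal cells, a 150-fold difference (-7.23 ± 0.26, adjusted p = 1.8e-10). Luminal progenitors averaged 16.15, which did not differ from stroma beyond the error (-0.13, adjusted p = 0.66), and mature luminal cells 18.02. miR-133b differed by -8.71 ± 0.38 and miR-1 by -6.07 ± 0.34, and the rat assay for miR-1 gave -5.79 ± 0.37.

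miR-143 and miR-145, which are made from 1 transcript and are known from smooth muscle, were also lower in stroma than in MaSC/basal cells, though by less. miR-143 measured 21.82, 21.95, 21.78 and 21.77 against 25.59, 26.65 and 25.85, an 18.4-fold difference. miR-145 measured 26.20, 26.21, 26.11 and 26.40 against 28.05, 29.20 and 28.54, a 5.16-fold difference. Stroma lay between MaSC/basal and luminal cells here. For miR-145 it was above luminal progenitors by 2.58 (adjusted p = 3.1e-06) and above mature luminal cells by 3.90. With the library labelled MaSC/basal 4 included, at 21.86 for miR-145 and 19.42 for miR-143, the differences were -0.68 (adjusted p = 0.64) and -2.55 (adjusted p = 0.078).

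The same order, MaSC/basal above stroma above luminal, was measured for miR-221, miR-222, miR-34c and miR-34b-3p. miR-221 and miR-222, which are known to target the cell cycle inhibitor p27, differed from stroma by -0.96 ± 0.21 and -1.90 ± 0.24, although without normalization miR-221 gave 0.03. The p53 targets miR-34c and miR-34b-3p differed by -1.26 ± 0.35 and -2.20 ± 0.20 while they exceeded luminal cells by 8.83 and 6.60. The call for miR-34c was lost under all 4 scalings, turning to 0.98 without normalization and to 0.44 with U6 alone, and that for miR-34b-3p without normalization (-0.87, adjusted p = 0.06). With MaSC/basal 4 included, miR-221, miR-222, miR-34c and miR-34b-3p all lost their calls, at -0.34, -1.07, 0.91 and -0.58 (adjusted p = 0.55, 0.16, 0.64 and 0.69). miR-34a, from another locus, went the other way. It measured 19.06 to 19.41 in stroma and 15.60 to 16.15 in MaSC/basal cells, a 10.2-fold excess, and luminal cells were 4.22 above MaSC/basal cells. miR-449a, of the same seed family and known from multiciliated cells, was not called (1.91 ± 1.60, adjusted p = 0.29). It was called without normalization (4.02, adjusted p = 0.042) and with U6 alone (3.48, adjusted p = 0.033). The same held over the 7 compared samples alone (adjusted p = 0.044) and without luminal progenitor 3 (adjusted p = 0.018).

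miR-135a and miR-135b, miR-338-3p and miR-204 were likewise highest in MaSC/basal cells. miR-135b gave the largest negative difference of the plate A assays, with 8.78, 8.10, 9.57 and 8.76 in stroma and 19.22, 18.04 and 19.20 in MaSC/basal cells, or 1040-fold (-10.02 ± 0.42). Luminal progenitors averaged 14.01 and mature luminal cells 12.89, each well above stroma. miR-135a was uneven in stroma, at 4.56, 5.63, 7.65 and 7.26 against 13.31 to 13.88 in MaSC/basal cells.

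miR-204 and miR-211 gave differences of opposite sign, but miR-211 passed the filter through stroma alone, which set its direction. miR-204, within Trpm3, measured 18.55, 18.25, 19.61 and 19.05 in stroma and 25.65, 25.48 and 26.00 in MaSC/basal cells, a 115-fold difference. miR-211, within Trpm1, was undetected in all 3 MaSC/basal samples and measured 11.45, 2.28, 11.50 and 7.22 in stroma, at least 159-fold higher by the mean with stroma 2 only just above the undetected level. Mature luminal cells were higher again for miR-211, at 14.27 ± 1.13 (SD, n = 3). With MaSC/basal 4 included, where miR-211 measured 9.93, the difference was 5.03 (adjusted p = 0.075).

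In the X-linked cluster of miR-322 and miR-503, 3 of 4 placed assays were higher in stroma than in MaSC/basal cells. miR-322 measured 21.40, 21.82, 21.63 and 20.86 in stroma and 15.34, 15.49 and 16.43 in MaSC/basal cells, a 51.1-fold difference. Luminal progenitors (19.76) and mature luminal cells (19.01) lay below stroma, by 1.67 (adjusted p = 2.5e-04) and 2.42 (adjusted p = 1.2e-05). miR-503 was raised by 3.87 ± 0.37, and in luminal progenitors it was higher than in stroma, by 1.79 (adjusted p = 8.9e-04). In the same cluster miR-542-3p was raised by 2.56, and miR-542-5p gave -0.32 and was not called. miR-148a, known to be abundant in milk and in the lactating gland, measured 22.02 to 22.39 in stroma against 17.79, 18.19 and 17.97, an 18.7-fold difference, and luminal progenitors averaged 22.11. In the X-linked cluster within Clcn5, 5 of 7 assays were higher in stroma, among them miR-532-3p (3.06 ± 0.16) and rno-miR-532-5p (2.97 ± 0.51). The mouse assay miR-532-5p gave -3.03 ± 2.67 and was not called (adjusted p = 0.31), with 22.63 to 22.78 in stroma and 27.65, 29.94 and 19.54 in MaSC/basal cells, so that the mouse and rat assays for this miRNA gave opposite signs. Without MaSC/basal 3 the mouse assay gave -6.11 (adjusted p = 0.037), and with mouse pool as a fixed block -3.03 was called (adjusted p = 3.2e-04).

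Related miRNAs did not always share a direction. In the miR-15 and miR-16 family 5 of 7 members were higher in stroma and 1 lower, with a median of 2.17. Of these 7, miR-503 does not share the seed of miR-16, miR-195 and miR-322. miR-195 measured 27.31 to 27.55 in stroma against 24.93 to 25.68 (2.24 ± 0.28) and miR-497, from the same hairpin pair on chromosome 11, was raised by 2.17 ± 0.14. miR-16, with the seed of miR-195, gave -0.05 with a 95% interval of -0.56 to 0.45, though with median centring it gave -1.14 and was called. miR-148a and miR-152 were raised by 4.22 and 1.97, while miR-148b gave -1.30 and turned to 1.22 (adjusted p = 0.031) without normalization and was not called under the other 3 scalings. miR-181a was raised by 1.51 ± 0.18 and miR-181c gave -2.48 ± 0.25, which turned to 0.11 without normalization.

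The pair of miR-103 and miR-107 differs by 1 base outside the seed. miR-107 measured 12.32, 11.50, 11.58 and 11.54 in stroma and 16.30, 16.39 and 16.13 in MaSC/basal cells, a 23.2-fold difference (-4.54 ± 0.23), whereas miR-103 gave -0.39 with a 95% interval of -0.80 to 0.01 and was not called (adjusted p = 0.069). Without MaSC/basal 3 or without stroma 2 miR-103 was called, at -0.54 and -0.48, and so it was with median centring (-0.72). In the let-7 family, known for promoting differentiation, 4 of 9 assays were higher, 3 lower and 2 not called, with a median of 0.06 that turned to -0.57 with median centring. let-7b and let-7i were raised by 1.48 and 1.46, with the call for let-7b lost with median centring (0.41, adjusted p = 0.05). let-7c measured 27.12 to 27.48 in stroma and 25.86 to 26.79 in MaSC/basal cells (1.06 ± 0.35, adjusted p = 0.017), a call lost without MaSC/basal 1 (0.98, adjusted p = 0.055) or MaSC/basal 3 (0.87, adjusted p = 0.068), and turned to -0.11 with median centring. miR-98, with the same seed, measured 3.93, 0.57, 2.30 and -0.22 in stroma, where 3 of 4 samples were detected, and 9.93, 9.88 and 14.74 in MaSC/basal cells (-9.87 ± 1.37).

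The clusters of miR-23, miR-27 and miR-24 were uneven as well. miR-23a measured 14.23, 13.96, 14.41 and 13.44 in stroma and 2.19, 3.04 and 6.27 in MaSC/basal cells, a difference of 10.18 ± 1.35. In MaSC/basal 1 and 2 miR-23a thus lay little above the level of undetected wells. miR-27a, from a hairpin beside it at chr8:84208518-84208758, gave 0.76 ± 0.40 (adjusted p = 0.10), and was called under 7 alternatives, among them without MaSC/basal 2 (1.08), without normalization (1.61), over the 7 compared samples alone (adjusted p = 0.042) and with mouse pool as a fixed block (adjusted p = 0.0065). miR-23b differed by -2.18 ± 0.32 and miR-24, encoded in both clusters, by 0.10 ± 0.27. miR-99a, miR-100 and miR-125b-5p were raised by 2.57, 2.02 and 1.89 in stroma and lay lowest in luminal cells, where miR-125b-5p averaged 21.45 and 20.13 against 24.84 in MaSC/basal cells. The list of miR-99, miR-100, miR-125 and let-7c had 5 of 9 assays higher and 1 lower, and its median of 0.97 turned to -0.11 with median centring.

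miRNAs known from proliferating cells were lower in stroma. Of 11 tested members of the miR-17-92 cluster and its paralogs 9 were lower, 0 higher and 2 not called, with a median of -1.62 that stayed negative under every scaling. The calls for miR-17, miR-20a, miR-20b and miR-106a held under all 4 other scalings, and those for miR-19a, miR-19b, miR-92a, miR-93 and miR-106b did not. miR-20b and miR-106a, from the X-linked paralog, showed the largest gaps, -3.02 ± 0.38 and -2.38 ± 0.32. miR-106a measured 23.04 to 23.48 in stroma and 25.45 to 25.94 in MaSC/basal cells. miR-17 and miR-20a, which share their seed, gave -2.28 and -1.99. miR-19b was called at -0.74 ± 0.30 (adjusted p = 0.040), a call lost without any 1 of the stromal samples (adjusted p from 0.053 to 0.089) or without MaSC/basal 3 (0.18). The miR-130 and miR-301 family was lower in 4 of 4 assays, with a median of -2.02. miR-301a and miR-301b gave -2.92 ± 0.17 and -2.44 ± 0.16, whereas miR-130a (-0.80) and miR-130b (-1.59) turned to 0.16 and 0.20 without normalization. The call for miR-130a was also lost without MaSC/basal 2 (-0.58, adjusted p = 0.052).

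Markers of the other cell types that a stromal sort could hold were not called higher in stroma on the deposited scale. Of the tested blood cell assays 0 of 6 were higher, 3 were lower and 3 were not called. Over all 285 plate A assays 36.5% were higher and 36.8% lower. Beside these shares, the counts for the short blood, fat and neural lists are only described. The log2 of the summed linear values of the 6 assays was 20.06 to 21.15 in stroma and 22.05 to 22.33 in MaSC/basal cells, a sum carried mostly by miR-150 and miR-155. miR-155 differed by -2.92 ± 0.28, miR-150 by -1.21 ± 0.26 (not called without normalization, -0.16) and miR-142-3p by -1.61 ± 0.43, which turned to 0.34 without normalization. The erythroid miR-451 gave 0.03 ± 0.43, but it was called higher without normalization (3.01, adjusted p = 8.9e-04), with U6 alone (2.46, adjusted p = 0.0055) and with median centring (1.54, adjusted p = 0.017), and the myeloid miR-223 -0.10 ± 0.28. The endothelial miR-126-3p measured 22.89 to 23.75 in stroma and 24.46 to 24.71 in MaSC/basal cells (-1.25 ± 0.22), a call lost without normalization (-0.58, adjusted p = 0.31), and the summed level of both miR-126 arms was 23.03 to 23.88 against 24.57 to 24.78. Of the fat cell assays 3 of 5 were lower (miR-107, miR-143 and miR-193b), 0 higher and 2 not called (miR-103 and miR-365). miR-365 gave -0.42 and was called lower under several alternatives, among them median centring (-1.13, adjusted p = 6.2e-04). miR-143 is also the miRNA given above as known from smooth muscle. Among neural assays 4 of 7 were lower and 0 higher. Of these 4, miR-338-3p was called lower under all 4 other scalings, and miR-124 and miR-9 were called under none. miR-128a was called lower only with cyclic loess on plate A alone (-0.59, adjusted p = 0.0057). The neural median of -1.45 turned to 1.07 without normalization and to 0.53 with U6 alone, with miR-128a then called higher without normalization (1.12, adjusted p = 0.023) and miR-9 at 1.46. The liver miRNA miR-122 was not called (1.98 ± 1.11), although it was called higher under all 4 other scalings (2.76 to 4.23), with mouse pool as a fixed block (adjusted p = 0.032) and without MaSC/basal 3 (3.38, adjusted p = 0.0064). The erythroid miR-486 was undetected in all 7 samples and not tested, the other 6 blood cell assays and both miR-126 arms were detected in all 7, and the part of such cells in the differences was not tested.

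Members of 2 further families were mostly not called. The miR-29 family, known to target collagen messenger RNAs, had 0 of 3 members called, with differences of 0.31 ± 0.36, 0.13 ± 0.42 and 0.08 ± 0.27 for miR-29a, miR-29b and miR-29c, although miR-29a gave -0.63 and was called with median centring, and miR-29b and miR-29c gave 1.88 and 1.22 and were called without normalization. In the miR-30 family 2 of 5 were lower, miR-30e by -1.46 ± 0.24 and miR-30d by -0.53 ± 0.17, and the other 3 were called lower with median centring, miR-30b by -1.33 and miR-30c by -1.28. miR-30e lost its call without normalization (-0.60, adjusted p = 0.18), and miR-30d turned to 0.52 without normalization and lost its call without MaSC/basal 2 (-0.45, adjusted p = 0.053). Of the 5 assays with the highest mean over the 7 samples, miR-24 measured 27.80 to 27.88 in stroma and 27.50 to 28.15 in MaSC/basal cells, an interval of -0.50 to 0.70 for the difference, and with median centring it was called at -1.11. Of the 76 plate A assays that were not called, 29 had a 95% interval within 1 unit either side of 0. Among the embryonic stem cell clusters 8 of 12 assays did not pass the filter. miR-295 was detected in 2 of 4 stromal and 3 of 3 MaSC/basal samples (-7.03 ± 1.10) and miR-292-3p differed by -3.04 ± 0.66, a call lost without normalization (-0.64, adjusted p = 0.43) and with U6 alone (-1.19, adjusted p = 0.18). miR-293 and miR-294 were not called, though miR-294 was without stroma 2 (3.16, adjusted p = 0.012).

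**Figure D4:**
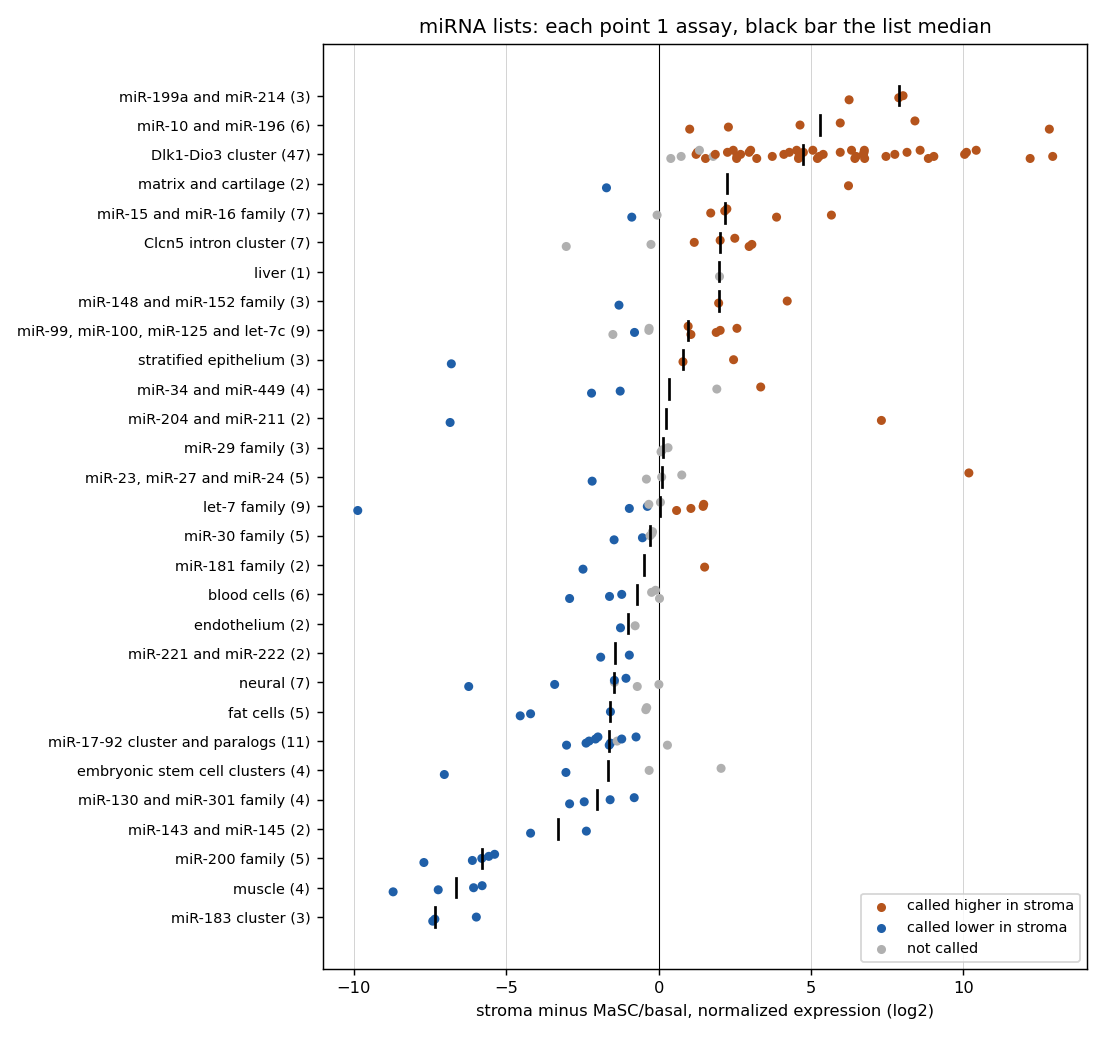
Difference of stroma and MaSC/basal cells (horizontal axis, log2) for each assay of 29 miRNA lists, ordered by the list median (black bar), with the number of tested assays after each name. The miR-199a and miR-214 list stands at the top with a median of 7.88 and the miR-183 cluster at the bottom with -7.34, and points of both colours occur within the let-7, miR-15 and miR-16, and miR-34 and miR-449 lists.

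Hairpins that lie close together were compared for their direction. Of 267 tested mouse assays 193 were matched to a single hairpin of the RefSeq table, and those within 10000 bases of each other on a strand formed 21 clusters with at least 2 tested hairpins. In 4 of the 21 only 1 assay was called, and in 16 of the other 17 all called assays had the same sign. In the cluster of let-7e and miR-125a 1 was higher and 1 lower. Assays that were not called could have the other sign, such as miR-294 at 2.05 beside miR-295 at -7.03. Neighbours share transcripts and are not independent. Over all 285 plate A assays 36.5% were higher and 36.8% lower, so that 2 called assays can share a sign by chance. The cluster from miR-379 to miR-410 also holds assays whose direction the filter set. The cluster of miR-130b and miR-301b and the cluster of miR-221 and miR-222 were lower in both members, and the pair of miR-497 and miR-195 was higher in both.

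The list medians under each scaling are shown in the plot of scalings. Medians of 3 or more in size kept their sign throughout, and those of the let-7, miR-23, miR-27 and miR-24, miR-29, miR-30, miR-181, blood cell, neural and embryonic stem cell lists, and of miR-99, miR-100, miR-125 and let-7c, crossed 0 under at least 1 scaling.

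**Figure D5:**
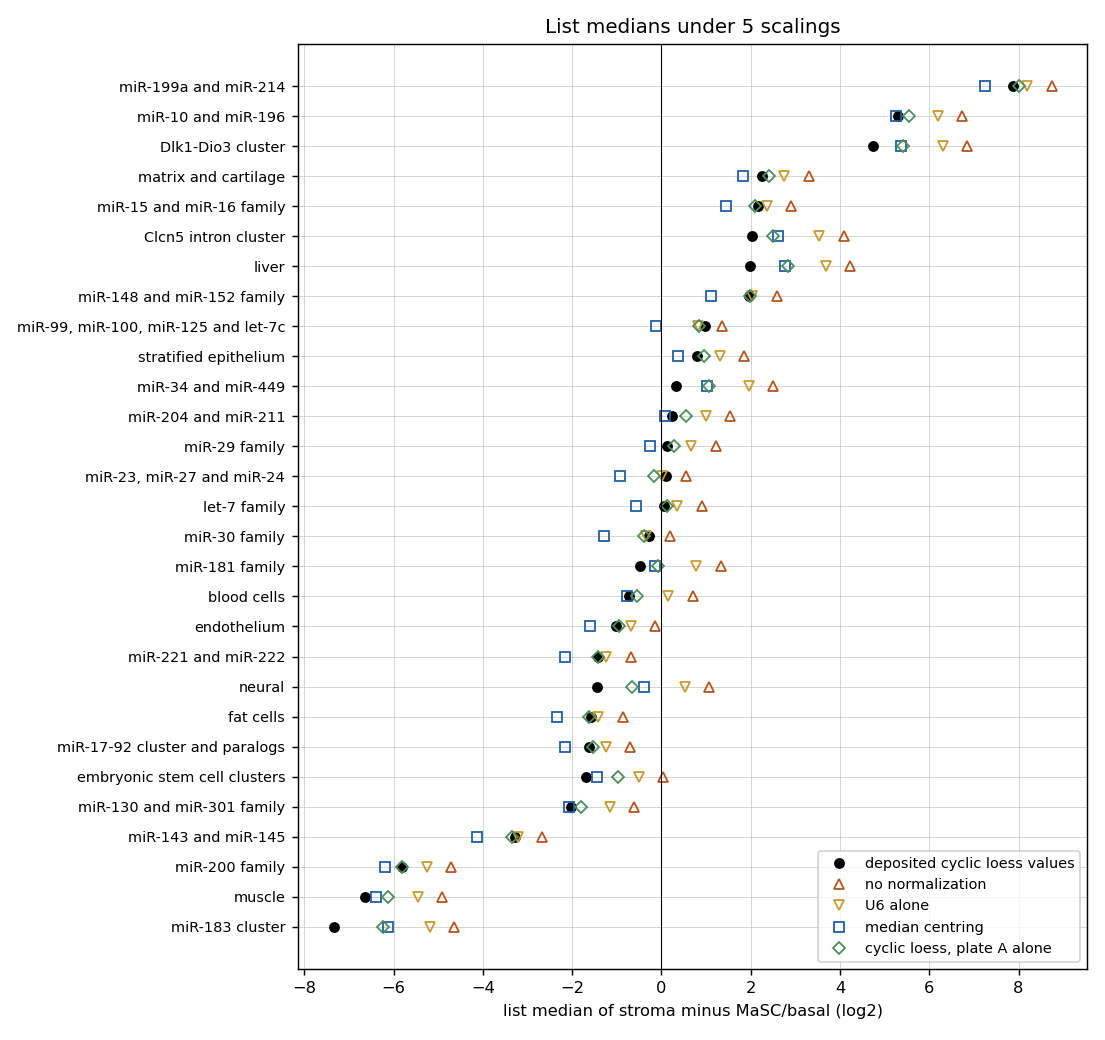
Median difference of stroma and MaSC/basal cells (horizontal axis, log2) of each miRNA list under the deposited normalization (filled circles) and 4 other scalings (open symbols). Values without normalization lie to the right of the deposited ones (-4.65 against -7.34 for the miR-183 cluster), and lists with a median beyond 3 in size stay on their side of 0.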

How the data were processed

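Stem-loop reverse transcription of RNA from sorted mouse mammary populations was followed by 12 cycles of pre-amplification and real-time PCR on TaqMan array plates. The authors deposited Ct values, with 40 for an undetected well, as one table, in PCR cycles. The deposited normalized table is on a log2 scale: the authors subtracted Ct from 40.5 and applied cyclic loess across samples (span 0.7, 5 iterations, U6 weighted 100). A rerun of these steps from the Ct values gave the deposited table to within 5.3e-14. Another deposited table holds the authors' own comparison of MaSC/basal with luminal cells and was not used.

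Assays with a value of 2 or more in at least 3 of the 7 samples were kept, 285 on plate A and 158 on plate B. Linear models with empirical Bayes (limma 3.58.1, R 4.3.3) were fitted to 4 population means over 13 samples (9 residual and 1.51 prior degrees of freedom), with Benjamini-Hochberg adjustment over 443 assays at 0.05. No permutation test of single assays was run. The number of samples limits the precision, and p-values measure the spread between samples only, which for stroma is that within a single mouse pool. A fold is 2 to the power of the log2 difference, and a lower bound where the lower group was undetected.

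The assays named are the 8 largest called differences each way, detected in all 7 samples without overlap, the 4 largest with an undetected lower group, the 5 highest means, and from each of 29 lists up to 4 members, or all members where 5 or fewer were measured. Members and lists were chosen with earlier results of these data known. In the lists, mouse and rat assays for the same miRNA are counted apart. The alternatives were other scalings and filters, other sets of samples, mouse pool or title number as a block, and leaving out each sample.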

Additional observations from a re-analysis of the deposited data

Results flagged for a closer look

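In 7 of 102 named assays 1 stromal sample stood apart from the other 3, by Dixon's criterion at the 95% level, which chance gives in about 1 of 20 groups. The sample was low for miR-431 (stroma 1 at 15.87, the others from 16.88 to 17.06), miR-200c (stroma 2 at 19.28, the others from 20.13 to 20.19), let-7e (stroma 3 at 25.47, the others from 25.90 to 25.97), miR-29c (stroma 2 at 18.67, the others from 18.91 to 18.95) and miR-124 (stroma 1 at 4.38, the others from 8.14 to 8.61). It was high for miR-10b (stroma 4 at 20.86, the others from 20.57 to 20.59) and miR-107 (stroma 1 at 12.32, the others from 11.50 to 11.58). For miR-431, miR-200c, miR-10b and miR-107 the gap is small beside the difference from MaSC/basal cells.

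On plate B, which the report does not describe, 68 of 209 assays were detected in all 4 stromal samples and in none of MaSC/basal 1 to 3, and 1 showed the opposite. Each MaSC/basal sample had 82 to 87 detected plate B assays and each stromal sample 160 to 162. The median plate B difference was 5.25. On that plate the control assays U87, snoRNA135 and snoRNA429 were undetected in MaSC/basal 1 to 3 and had mean Ct values of 20.8, 16.3 and 16.6 in stroma, although U87 and snoRNA135 had mean Ct values of 22.7 and 19.6 in the same MaSC/basal samples on plate A. The part of this in the plate B differences was not tested.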

How the results depend on the processing

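Of 209 plate A assays called between stroma and MaSC/basal cells, the number under the alternatives ran from 157, with the 4 stromal samples averaged to 1, to 267 without a filter, and from 194 to 215 when single samples were left out (95 to 106 higher and 99 to 109 lower). Higher calls ran from 77 to 141 over all alternatives. The 105 lower calls became 41 without normalization, 61 with U6 alone and 163 without a filter, where 56 of the called assays had not passed the filter and 52 of these were undetected in all 7 samples. Between MaSC/basal and luminal cells 150 assays became 89 over all 14 samples. Of the 209 calls, 68 higher and 38 lower ones held under all 29 alternatives that measured them.

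The replicate numbers of the titles do not pair stroma with MaSC/basal cells, since same-numbered samples came from different pools and their deviations correlated at 0.01 to 0.03. With that number as a replicate block 189 plate A assays were called, 96 higher and 93 lower. With mouse pool as a random replicate block (consensus correlation 0.20) 199 were called, and with pool as a fixed replicate block among epithelial samples 213.

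Sign changes are given for named assays called with the deposited values or under the alternative. Differences turned sign without normalization for miR-34c (0.98), miR-221 (0.03), miR-30d (0.52), miR-130a (0.16), miR-130b (0.20), miR-148b (1.22), miR-181c (0.11), miR-142-3p (0.34), miR-128a (1.12) and miR-9 (1.46). With U6 alone they did so for miR-34c (0.44), miR-148b (0.67), miR-128a (0.57) and miR-9 (0.91), with median centring for miR-24 (-1.11), let-7c (-0.11) and miR-29a (-0.63), and over all 14 samples for miR-34c (0.91). Assays called under neither could turn sign as well, such as miR-103 (0.75) and miR-365 (0.35) without normalization. The cause was not tested. Ct values near 40 limit what can be said of assays seen in few samples.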

Other observations

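Further assays outside the lists differed widely and were chosen after their values were seen. miR-675-3p, cut from the imprinted H19 transcript, was detected in every stromal sample at a mean of 9.65 ± 0.43 (SD, n = 4) and in 1 of 3 MaSC/basal samples, at 1.88, so that it passed the filter through stroma alone. Mature luminal 3 measured 12.87, above every stromal sample, and stroma did not differ from mature luminal cells in limma (4.13, adjusted p = 0.1). miR-32 and miR-298 were lower in stroma, by -4.92 ± 0.27 and -4.88 ± 0.92. Both arms of miR-582 were lower, by -3.03 ± 0.29 for the 5p arm and -4.20 ± 0.27 for the 3p arm, and miR-582-3p averaged 8.69 ± 0.21 (n = 4) in stroma and 12.89 ± 0.56 (n = 3) in MaSC/basal cells. The calls for miR-298 and for both arms of miR-582 did not hold under all 4 other scalings. miR-218, raised by 1.78 ± 0.20, followed the order stroma (23.43), MaSC/basal (21.65) and luminal cells (16.92 and 17.42), as miR-125b-5p did.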
